A study of Homo sapiens with 3 samples.

Results

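The 10 genes described here, POU5F1, NANOG, DPPA4, CRIPTO, ZFP42, UTF1, L1TD1, LIN28A, LIN28B and SALL4, belong to the network that holds human stem cells in the pluripotent state. Accessible chromatin around them was read in neurons by ATAC-seq, in which the Tn5 transposase places sequencing adapters into open DNA. A region was taken for a gene when its summit lay in the RefSeq gene body or within 50 kb of the outer ends. This gave 38 of the 65234 distinct regions of the list, around 10 of the 20037 protein-coding genes on the main chromosomes. The neurons came from KOLF2.1J, an established line of induced pluripotent stem cells of human origin that here carried NGN2 (KOLF2.1J-hNGN2), a neurogenic transcription factor, and were collected after 14 days of differentiation. All 3 biological replicates form a single group of 1 line and stage. The authors deposited 1 list of regions for the group, so no value per replicate, no standard deviation and no undifferentiated stem cell sample stand beside the values, and no test was made. The wider study sought regulatory elements of MAPT, the tau gene.

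Pluripotent cells express POU5F1 (OCT4), which binds DNA with SOX2 and activates NANOG, its own gene and many others of the network. The other members include nuclear factors (DPPA4, ZFP42, UTF1, SALL4), a cell-surface co-receptor of NODAL signalling (CRIPTO) and RNA-binding proteins (L1TD1, LIN28A, LIN28B). LIN28A and LIN28B block the maturation of let-7 microRNAs, and the network as a whole is known to be shut down when stem cells become neurons, although SALL4 and the LIN28 genes are also used in embryonic tissues.

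The starts of 4 of the 10 genes were accessible and those of 6 were not. A start was counted as accessible when the strongest summit of a region lay within 1 kb of it. DPPA4, LIN28A, LIN28B and SALL4 met this, whereas POU5F1, NANOG, CRIPTO, ZFP42, UTF1 and L1TD1 did not. The background was 71.2% of the 15842 protein-coding genes with a start in the RefSeq promoter table. The starts of POU5F1, LIN28A and SALL4 were taken as the outer end given by the known strand of each gene. Counted at either outer end of the gene instead, 2 of the 10 genes were accessible, against 66.7% of all protein-coding genes, because the starts of DPPA4 and LIN28B lie inside the outer ends. A start with no summit within 1 kb and no interval over it is called closed below, which says only that the list holds none there. The weakest summit entry of the list held 58 tags, secondary summits included. Only 1.44% of regions held 96 tags or fewer at the strongest summit, so weaker accessibility would rarely be listed. Accessibility in a few cells and weak accessibility in all cells cannot be told apart in these bulk samples.

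Among the closed starts the nearest summit was 8.28 kb away for CRIPTO, 12.2 kb for POU5F1, 17.7 kb for NANOG, 19.1 kb for L1TD1, 31.7 kb for UTF1 and 36.7 kb for ZFP42. The same distance had a median of 0.123 kb over all protein-coding genes in the table, and 90% of those genes had a summit within 25.3 kb. UTF1 and ZFP42 thus lay beyond that distance and the other closed genes within it. The accessible starts were 0.015 kb (DPPA4), 0.067 kb (LIN28B), 0.119 kb (SALL4) and 0.475 kb (LIN28A) from a summit.

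**Figure D1:**
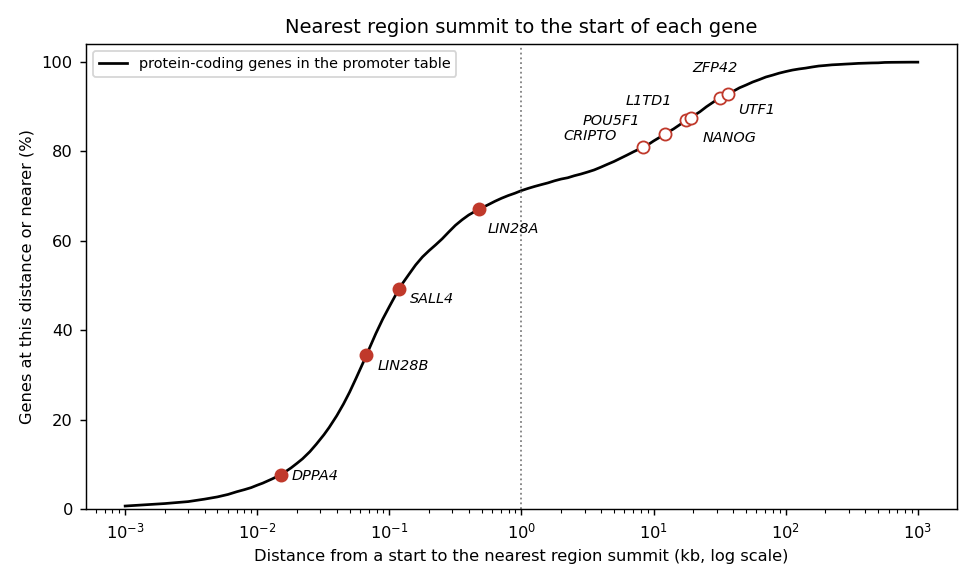
Distance in kb (log axis) from a gene's start to the nearest region summit, against the percentage of protein-coding genes at that distance or nearer (black line). Filled red points are the 4 genes with a summit within 1 kb (dotted line) and open points the 6 without, which begin at 8.28 kb with CRIPTO and end at 36.7 kb with ZFP42.

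POU5F1 on chromosome 6 (31164337 to 31170682, GRCh38) encodes the POU-domain factor at the centre of the network. No interval touched the gene, and a span of 37.8 kb around its start, from 31159055 to 31196890, held none. The proximal and distal enhancers of POU5F1 lie in the first few kilobases upstream of the start. All 10 of the 1 kb steps upstream were empty, by summit and by overlap of an interval, so both known enhancers were closed in this list. The first summit upstream was at -26.5 kb. The 4 regions in the window all lay outside the gene. The strongest, from 31157956 to 31159054, had a fold enrichment over local background of 14.6 and 1854 tags at its summit (exact Poisson 95% interval 1771 to 1940), and it covered the ends of TCF19 and CCHCR1, 5.89 kb beyond the downstream end of POU5F1. It therefore belongs to these neighbours by position. A region at 5.59-fold lay at PSORS1C2 and one at 6.47-fold at the lncRNA gene HCG27. The last, 31214100 to 31214805, stood between genes at 10.5-fold and 43.8 kb upstream, with 361 tags.

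NANOG on chromosome 12 (7789402 to 7799146) encodes the homeodomain factor of the network. Its body, its start and the 10 kb upstream held no interval, so the stretch a few kilobases upstream, where a Nanog enhancer is known in mouse cells, was closed as well. The empty span ran for 47.7 kb, from 7759134 to 7806865. The promoter holds a composite OCT4-SOX2 word, searched on both strands as CATTGT followed, after any 1 base, by ATGCAAA. It lies 120 to 107 bases before the start, and 2 of 22175 protein-coding starts had a match in their 300 bases. This word and the shorter ATGCAAA contained in it, which 3.82% of starts hold, were chosen after the sequence had been seen. The site is shown with the match in capitals (chr12:7789274-7789303, plus strand, RefSeq GRCh38.p14), because OCT4 and SOX2 are known to bind the NANOG promoter in stem cells and no interval covered this match.
NANOG site: cagctactTTTGCATTACAATGgccttggt
The 4 regions of the window were at -30.8 kb (3.92-fold, 152 tags), 17.7 kb (8.91-fold, 295 tags), 53.9 kb (3.79-fold, 193 tags) and 58.3 kb (8.33-fold, 411 tags) from the start. The last pair lay inside SLC2A14, a glucose transporter gene, and the others between genes. Of these the 17.7 kb region, 7806866 to 7807405, lay 7.91 kb beyond the downstream end of NANOG and 5459 bp from an end of SLC2A14.

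CRIPTO, ZFP42, UTF1 and L1TD1 were closed throughout their bodies. CRIPTO, on chromosome 3 (46574535 to 46582457), has 2 starts in the table and neither had a region. An upstream interval at -8.28 kb (3.90-fold, 136 tags) covered an end of LRRC2 and is that neighbour's by position. The other CRIPTO region (3.91-fold, 175 tags) lay 3570 bp from FAM240A. For ZFP42 (REX1, a zinc finger factor), on chromosome 4 (187995771 to 188005246), the empty span reached 424.9 kb. Spans that long held the start of 1.93% of the protein-coding genes in the table. The single ZFP42 region, 188031726 to 188032934, was downstream of the gene and between genes, at 7.17-fold with 301 tags and 4 summits. For UTF1, a chromatin-associated protein whose gene lies on chromosome 10 (133230217 to 133231558), the span was 99.6 kb. Its single region (3.84-fold, 301 tags) lay 508 bp from ADAM8. L1TD1 on chromosome 1 (62194849 to 62212328), an RNA-binding protein derived from a LINE-1 element, had a region at -19.1 kb (6.62-fold, 199 tags) between genes and one inside KANK4 (4.93-fold, 178 tags).

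DPPA4, a nuclear protein of pluripotent and germ cells, was accessible at its start on chromosome 3, position 109337546, minus strand. The interval 109337099 to 109337952 had its summit 15 bp upstream of the start, at 4.38-fold with 214 tags (interval 186 to 245). A second interval lay beside it, with its summit 781 bp downstream of the start, at 5.41-fold with 269 tags. The third region of the window was stronger, 6.70-fold with 404 tags, and lay 18.3 kb upstream, between genes. DPPA2, the neighbouring paralogue, was closed, with its nearest summit 20.2 kb away in DPPA4.

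SALL4, on chromosome 20 (51782331 to 51802521), encodes a zinc finger factor of stem cells and embryonic limb and germ cells. An interval from 51802144 to 51802847 covered its start, with the summit 119 bp upstream, 6.67-fold and 537 tags (interval 493 to 584). A region of similar strength, 6.82-fold and 557 tags, lay 2.17 kb downstream inside the gene. The counting intervals of the 2 overlap. The 3 other regions of the window were inside neighbours. Those at 3.21-fold and 6.08-fold lay in ATP9A, and the wider of them, 2220 bp long with 6 summits, reached an end of that gene. The one at 3.34-fold lay in LINC01429.

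LIN28A on chromosome 1 (26410817 to 26429728) held a run of 3 intervals at and above its start, with summits at -0.475, -1.33 and -2.07 kb. Their fold enrichments were 3.04, 4.59 and 3.69, with 170, 259 and 216 tags. The interval at the start was the weakest of the 3. It stood at percentile 4.06 of all regions at a gene end or start by fold enrichment, and it was lost when a score of at least 830 was required. Further regions inside the gene lay 6.43 kb (5.93-fold, 225 tags) and 8.23 kb (3.31-fold, 113 tags) downstream. The highest fold enrichment of the 38 regions, 16.1 with 1088 tags, was in this window but at the ends of DHDDS and LOC124903883, 2.48 kb past the end of LIN28A. The region at HMGN2 (6.21-fold, 740 tags) is likewise a neighbour's by position.

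LIN28B on chromosome 6 (104937026 to 105083332, 146.3 kb) held the most regions, 9, and was accessible at both of its starts in the table. At the outer start, position 104940965, an interval of 1704 bp with 5 summits reached 7.70-fold and 826 tags (interval 771 to 884), and it also covered an end of LIN28B-AS1, so it cannot be given to 1 of the 2 genes. At the inner start, position 104957107, an interval of 1714 bp with 6 summits reached 4.13-fold and 214 tags. The outer start thus had more tags at its strongest summit than the inner one, with counting intervals that do not overlap (186 to 245 tags at the inner start). These intervals leave out the spread between replicates. The local background was also higher at the outer start, 106 tags against 51.0 at the inner one. Smaller regions flanked the inner start at -0.886 kb (2.60-fold) and 1.82 kb (4.01-fold). Another 3 lay deeper in the gene, at 3.24-fold, 4.33-fold and 4.58-fold with 97, 130 and 140 tags. The remaining regions, at 4.32-fold and 5.34-fold, were outside the gene, the former just within the window at 49.5 kb from the outer end. The nearest region left out by the 50 kb limit around any of the 10 genes was 50.4 kb from L1TD1 (5.23-fold).

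**Figure D2:**
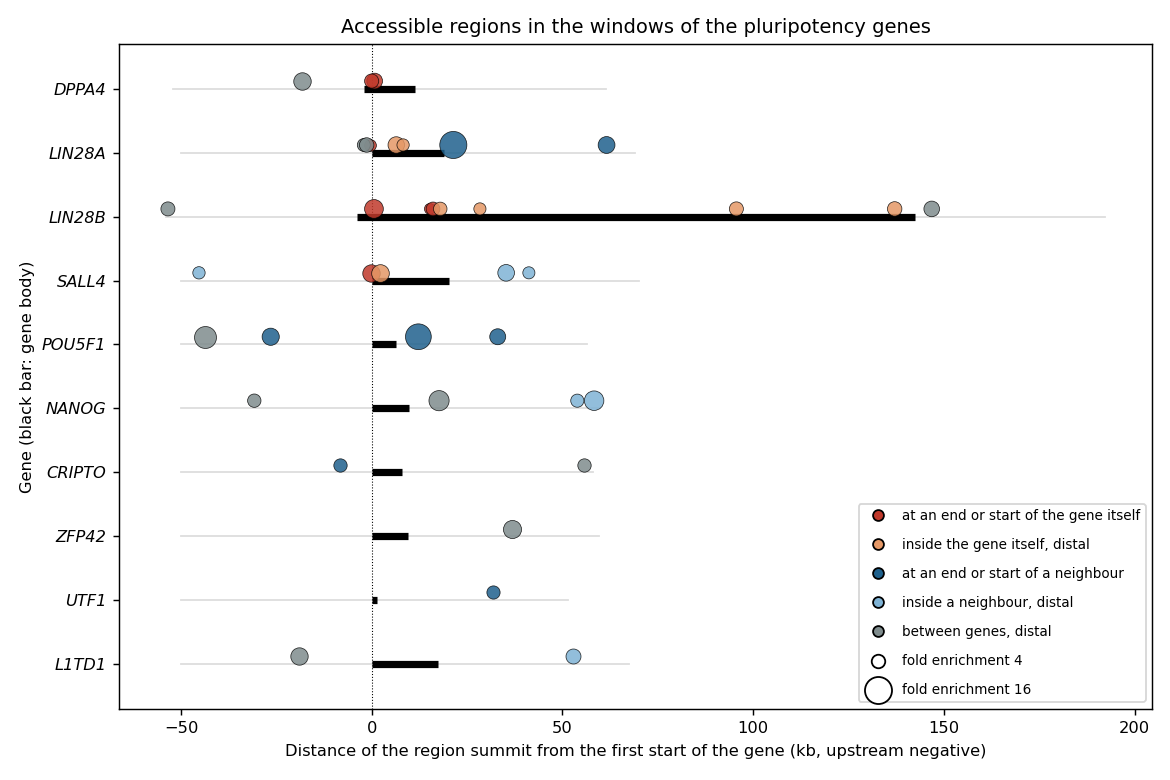
Position of each region's summit relative to the first start of its gene (kb, upstream negative), with circle area proportional to fold enrichment and colour giving the gene or gap it lies in. Black bars are gene bodies and grey lines the windows. Red circles stand at DPPA4, LIN28A, LIN28B and SALL4 alone, and the largest circles, at LIN28A and POU5F1, are regions at the ends of neighbours.

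Of the 38 regions, 14 were at a start of or inside 1 of the 10 genes, 7 in each place, and these belonged to DPPA4, LIN28A, LIN28B and SALL4. Another 7 were at an end or start of a neighbour, 6 inside a neighbour and 11 between genes. The 7 regions at the genes' own starts had a median fold enrichment of 4.38 (range 2.60 to 7.70) and a median of 214 tags. The 7 at neighbours' ends had a median of 6.21 (range 3.84 to 16.1) and 321 tags. Over the whole list the medians were 8.41 and 643 tags at gene ends and starts, and 5.07 and 197 tags for distal regions. The fold enrichment of all 7 own-start regions was therefore below the list's median for its class. By tags this did not hold for the outer LIN28B start, where 826 tags exceeded the median of 643. The other own-start regions were below it. The 24 distal regions of the windows had a median of 4.58, and 9 of them exceeded 5.60, the median of all regions.

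**Figure D3:**
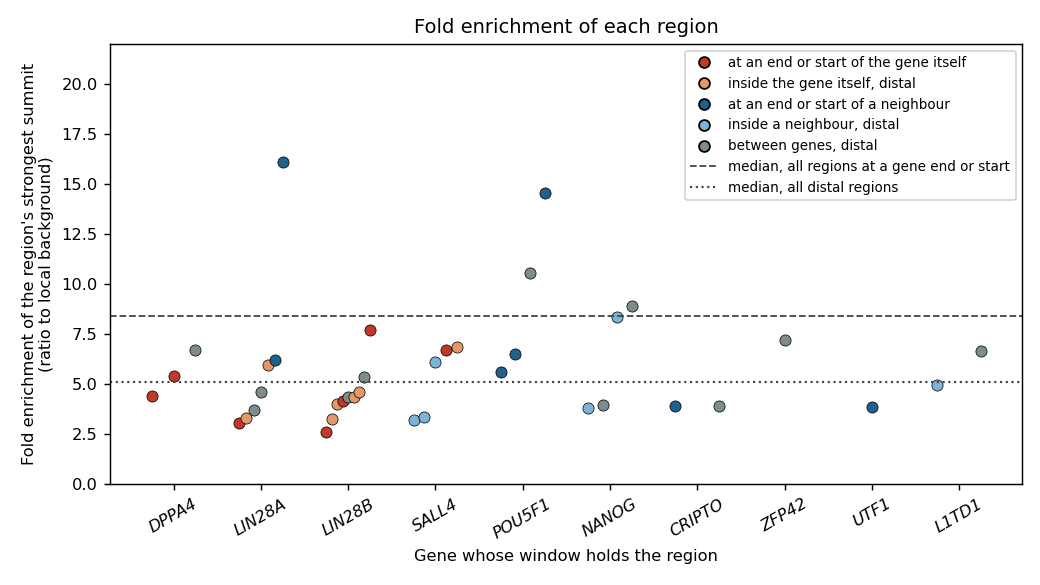
Fold enrichment over local background of each region's strongest summit, by the gene whose window holds it. Every red point (a gene's own start) lies under the dashed line, the median of 8.41 for all regions at gene ends and starts, and the 2 highest points are at neighbours of LIN28A (16.1) and POU5F1 (14.6).

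Every one of the 10 windows held at least 1 region, as did 95.7% of the protein-coding genes in the table. The number in a window ranged from 1, at ZFP42 and UTF1, to 9 at LIN28B, with 7 at LIN28A, 5 at SALL4, 4 at POU5F1 and NANOG, 3 at DPPA4 and 2 at CRIPTO and L1TD1. The median over all protein-coding genes in the table was 5 (quartiles 3 and 7). Among genes of similar length, LIN28A stood at percentile 84.8, LIN28B at 81.3, POU5F1 at 53.5 and ZFP42 at 13.3. The POU5F1 and NANOG windows were thus not poor in regions, but none of their 8 regions was in the gene. Summits 1 to 10 kb upstream of a start were found for LIN28A, with 2, and for CRIPTO, with the 1 at LRRC2. The share of protein-coding genes with such a summit was 27.9%.

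The sequence at the starts was then read, because starts rich in CpG dinucleotides are accessible in most cell types. Of the 22175 protein-coding starts in the promoter table, 13.4% were accessible with 0 to 3 CpG in the 300 bases from 250 before to 50 after the start, 28.6% with 4 to 8, 57.3% with 9 to 15, 85.6% with 16 to 25 and 92.0% with 26 or more. The genes here departed from this order in both directions. UTF1, with 39 CpG, and ZFP42, with 24, were closed in classes that were mostly accessible. DPPA4, with 5 CpG, and the inner start of LIN28B, with 8, were accessible in a class that was mostly closed. L1TD1 (14) and the CRIPTO start with 11 CpG were closed in a class that was accessible at 57.3%. NANOG (5) and the CRIPTO start with 2 CpG were closed in classes that were mostly closed, and the outer start of LIN28B (37) was accessible in a class that was mostly accessible. The sequences of 6 of these starts are printed in full to show the contrast, the closed first and CpG in capitals. They come from RefSeq on GRCh38.p14, 5′ to 3′ on the gene's strand, and span chr10:133229967-133230266 (plus), chr4:187995521-187995820 (plus), chr12:7789152-7789451 (plus), chr3:109337497-109337796 (minus), chr6:104956857-104957156 (plus) and chr6:104940715-104941014 (plus).
UTF1: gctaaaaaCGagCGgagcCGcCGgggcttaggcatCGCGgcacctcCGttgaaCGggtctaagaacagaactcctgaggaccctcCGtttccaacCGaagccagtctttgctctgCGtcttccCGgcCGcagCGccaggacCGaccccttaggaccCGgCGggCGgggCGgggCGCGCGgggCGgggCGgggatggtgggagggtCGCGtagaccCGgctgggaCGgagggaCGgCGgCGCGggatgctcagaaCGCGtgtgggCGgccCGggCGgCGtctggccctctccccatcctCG
ZFP42: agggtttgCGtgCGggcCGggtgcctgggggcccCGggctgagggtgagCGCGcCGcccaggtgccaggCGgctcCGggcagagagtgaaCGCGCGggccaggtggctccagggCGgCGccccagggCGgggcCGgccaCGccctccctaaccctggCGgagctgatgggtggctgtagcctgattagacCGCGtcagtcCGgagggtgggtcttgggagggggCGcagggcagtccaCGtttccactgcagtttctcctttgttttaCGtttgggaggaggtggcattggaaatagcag
NANOG: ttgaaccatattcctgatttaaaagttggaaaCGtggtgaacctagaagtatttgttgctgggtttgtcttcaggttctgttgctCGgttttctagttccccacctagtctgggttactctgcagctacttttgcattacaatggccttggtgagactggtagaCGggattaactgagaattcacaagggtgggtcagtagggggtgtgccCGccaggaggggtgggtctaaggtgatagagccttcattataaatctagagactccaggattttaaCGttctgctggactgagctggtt
DPPA4: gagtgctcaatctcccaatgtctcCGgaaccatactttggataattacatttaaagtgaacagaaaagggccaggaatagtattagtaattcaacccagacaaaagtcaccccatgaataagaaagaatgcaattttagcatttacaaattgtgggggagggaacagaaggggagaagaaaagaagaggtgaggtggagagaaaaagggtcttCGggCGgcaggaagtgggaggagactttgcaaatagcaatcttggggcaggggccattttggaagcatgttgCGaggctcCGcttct
LIN28B, inner start: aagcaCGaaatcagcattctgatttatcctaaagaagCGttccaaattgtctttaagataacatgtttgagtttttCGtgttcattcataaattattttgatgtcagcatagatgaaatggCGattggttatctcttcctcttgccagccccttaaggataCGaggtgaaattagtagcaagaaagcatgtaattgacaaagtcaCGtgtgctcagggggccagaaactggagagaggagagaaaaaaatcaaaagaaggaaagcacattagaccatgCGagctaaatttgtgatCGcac
LIN28B, outer start: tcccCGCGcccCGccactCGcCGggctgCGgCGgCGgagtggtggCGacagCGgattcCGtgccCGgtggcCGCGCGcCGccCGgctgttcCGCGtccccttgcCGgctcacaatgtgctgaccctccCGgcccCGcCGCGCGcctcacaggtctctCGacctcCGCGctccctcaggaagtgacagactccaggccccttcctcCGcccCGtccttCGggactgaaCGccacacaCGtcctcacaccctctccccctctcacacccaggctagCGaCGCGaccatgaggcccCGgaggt
In these lines UTF1 and the outer LIN28B start are nearly alike in CpG number, at 39 and 37, with GC contents of 71.7% and 73.0%, and only the LIN28B start had a region. NANOG and DPPA4 both have 5 CpG, with GC contents of 46.7% and 45.3%, and only DPPA4 had one. Of 4 further words searched on both strands, the octamer ATGCAAAT was in none of the 9 starts of these genes in the table and in 1.65% of all starts. ACAAAG, a SOX word, was in the ZFP42, L1TD1 and inner LIN28B starts (13.6% of all). The E-box word CAGCTG was in the first CRIPTO start (18.0% of all), and CAGATG was in none (12.2% of all).

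**Figure D4:**
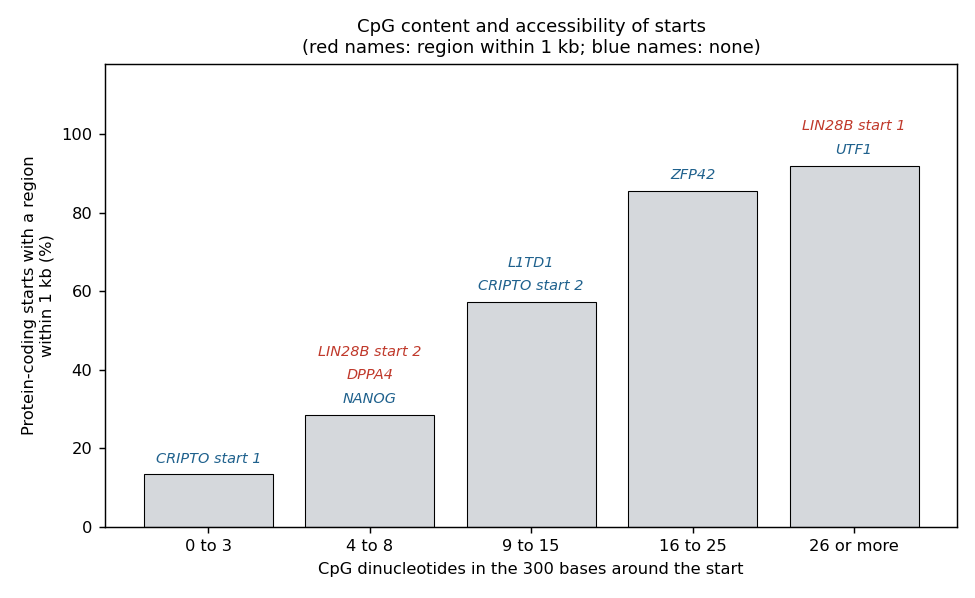
Percentage of protein-coding starts with a region summit within 1 kb, by number of CpG dinucleotides in the 300 bases around the start. Names above the bars place the genes' starts in their class, red where a region was found and blue where none was. UTF1 and ZFP42 are blue in the classes at 92.0% and 85.6%, and DPPA4 and the inner LIN28B start (start 2) are red in the class at 28.6%.

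Other genes of the network were counted in lists, with either outer end of the gene used where the table has no start. These counts are read against 71.2% of all protein-coding genes at starts in the table and 66.7% at either outer end. Of 9 further network genes, listed as primed partners, 6 had an accessible start, which is near the share over all genes. Whether each of the 9 marks that state was not tested. They included KLF4 (8.06-fold) and ZIC2 (5.73-fold), both transcription factors with uses outside pluripotency, DNMT3B (5.68-fold), a DNA methyltransferase, and SOX2 (5.08-fold), which also serves neural progenitors. OTX2, ZSCAN10 and DPPA2 had none. Of 10 genes of the naive state 5 were accessible, with the highest fold enrichment at KLF5 (14.4), TBX3 (9.13) and ESRRB (6.99), whereas KLF17, DPPA3 and DPPA5 were closed. In NODAL and FGF signalling 4 of 10 were accessible. ACVR1B, a receptor gene, had 12.3-fold, SMAD2, an intracellular mediator, 11.5-fold and SMAD3 6.64-fold, while the ligand genes NODAL, LEFTY1, LEFTY2, GDF3 and FGF4 were closed and FGF2 (5.58-fold) was accessible. The start of the receptor gene ACVR2B was not counted as accessible, but an interval covered it, with the strongest summit 1.56 kb away. GDF3 and DPPA3 lie beyond the window of NANOG on the same chromosome, and their nearest summits were 18.2 and 20.2 kb away. All 3 other SALL genes were accessible, with SALL1 at 7.25-fold, SALL3 at 6.15-fold and SALL2 at 4.74-fold.

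The LIN28 and let-7 pathway was accessible at all 10 of its listed genes, 6 of them scored at starts in the table (71.2% of all protein-coding genes) and 4 at either outer end (66.7%). DROSHA (15.9-fold), TUT7 (13.8-fold) and DGCR8 (12.6-fold) led. DROSHA, with its partner DGCR8, cuts primary microRNA transcripts, and TUT7 adds uridine to precursors. HMGA2 (3.26-fold) and IGF2BP1 (7.08-fold) are let-7 targets known from embryonic tissue. All 5 values exceed the 3.04-fold of the LIN28A start, and the first 3 also exceed the 7.70-fold of the outer LIN28B start. However, the first 3 were named as the highest of their list. The LIN28A and outer LIN28B starts stood at percentiles 4.06 and 44.7 of all regions at gene ends and starts. The comparison is therefore not particular to the pathway. The let-7 genes themselves are cut from longer transcripts, so distance from the hairpin does not locate a start. A summit within 1 kb of the hairpin was found for 1 of 12, MIRLET7I, against 13.9% of 1913 microRNA genes. The nearest region lay at the start of a gene that contains the hairpin for MIRLET7I (MIRLET7IHG, 10.6-fold), for MIRLET7A1, MIRLET7F1 and MIRLET7D (MIRLET7A1HG, 12.5-fold), for MIRLET7C (MIR99AHG, 4.81-fold) and for MIRLET7G (WDR82, 10.8-fold). For MIRLET7A2, MIRLET7A3, MIRLET7B, MIRLET7E, MIRLET7F2 and MIR98 the nearest region was at no start in the promoter table. The share over all microRNA genes was not computed for this measure.

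The microRNAs specific to stem cells gave 1 accessible site. A region from 112648400 to 112649129 on chromosome 4, at 5.79-fold with 174 tags, covered part of the miR-302 and miR-367 cluster, and its summit lay within 1 kb of 5 of the 8 listed hairpins and of the start of the host transcript MIR302CHG. The cluster lies within LARP7, and the 5 hairpins share the region, so they stand for 1 site. Over all 1913 microRNA genes, 13.9% had a summit within 1 kb of the hairpin. The miR-371 to miR-373 cluster on chromosome 19 had its nearest summit 4.38 kb away or more, at an end of NLRP12. The mature sequences are shown with the seed, bases 2 to 8, in capitals, since the let-7 seed is shared by all 12 genes of that family and another seed by MIR302A, MIR302B, MIR302C, MIR302D, MIR372 and MIR373. Sequences are from RefSeq, GRCh38.p14.
let-7a-5p: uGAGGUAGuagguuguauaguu
let-7i-5p: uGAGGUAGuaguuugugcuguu
miR-302a-3p: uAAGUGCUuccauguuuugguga
miR-302c-3p: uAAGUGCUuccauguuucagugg
miR-372-3p: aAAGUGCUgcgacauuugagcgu
The first 2 lines share the seed of the let-7 family, whose precursors LIN28 proteins bind. The last 3 lines share AAGUGCU and come from a cluster with a region (miR-302a, miR-302c) and a cluster without one at its hairpins (miR-372).

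**Figure D5:**
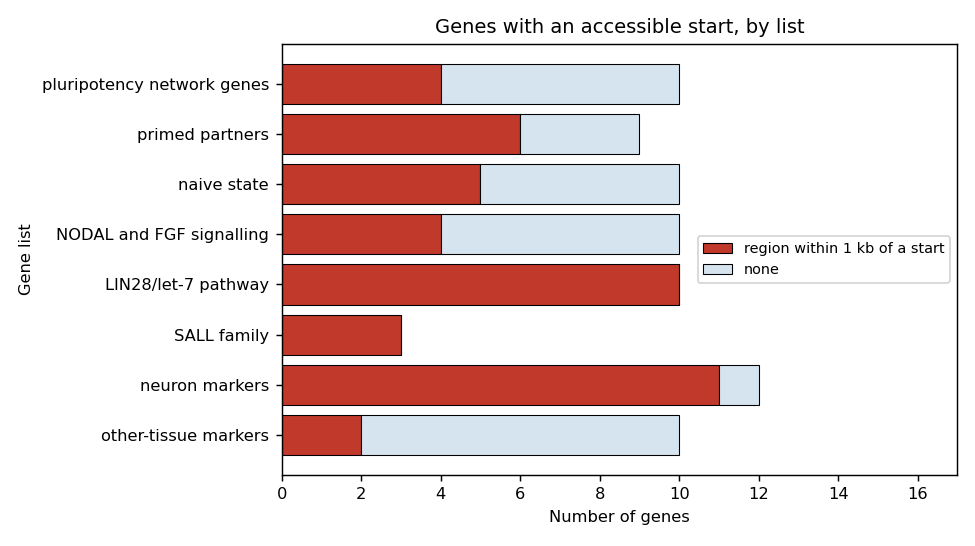
Number of genes in each list with a region summit within 1 kb of a start (red) or without one (pale blue), with either outer end used where the table has no start. The pluripotency network genes stand at 4 of 10, the LIN28/let-7 pathway at 10 of 10 and the neuron markers at 11 of 12.

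The label of the cells was checked on marker genes. Of 12 neuron markers 11 had an accessible start, among them MAP2 (10.2-fold), DCX (7.91-fold) and SYN1 (10.8-fold), and the exception, ELAVL4, had a summit 1.08 kb from a start. Of 10 markers of other tissues 2 were counted as accessible, APOA1 (6.47-fold) and CDX2 (2.64-fold). As in the other lists, either outer end was used where the table has no start, which applied to APOA1. Its summit lay 367 bp from the outer end at 116835751, and the interval did not reach the other end. An accessible start is therefore not shown for APOA1. The share over all protein-coding genes, 71.2% at starts in the table and 66.7% at either outer end, lies between these counts. The table also lists 11 NANOG pseudogenes and 7 genes or pseudogenes copied from POU5F1, and none in either group had a summit within 1 kb of an end. The same held for 3 LIN28A pseudogenes, 7 SALL4 pseudogenes and 3 DPPA4 pseudogenes, whereas 2 of the 15 pseudogenes of DPPA3 and DPPA4 together had one. Over all 16845 pseudogenes in the table the share was 5.73%. How reads that match several copies were handled is not given in the sources used here, and its part in the closed state of NANOG and POU5F1 was not tested.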

How the data were processed

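ATAC-seq was run on 3 samples of 1 group, and depth per sample is unknown because the authors deposited 1 list for the group. The labels name it an optimal peak set from an IDR (irreproducible discovery rate) analysis. The build is hg38 per the submitters' processing notes, and the aligner, peak caller and filters are not given in the sources used here. The deposited list holds, per summit, a fold enrichment (a linear ratio), −log10 p and −log10 q as deposited, a score from 540 to 1000 with no stated scaling, and a summit offset. Entries with the same bounds were merged, and the entry of highest −log10 p gave the region its values. From fold and p, tags at each summit were recovered under a Poisson tail with a pseudocount of 1 in the ratio (largest misfit 0.00079 in −log10 p). Intervals are exact Poisson 95% intervals. The libraries were amplified by PCR, so intervals cover counting error only.

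Starts came from the RefSeq promoter table (GRCh38.p14), with 7 of the 10 genes matched. For the other genes outer ends of the RefSeq gene table were used, the 3 of the network by their known strand. Distal means no gene end or start within 1 kb of the strongest summit. The wide interval in ATP9A therefore counts as distal although it reaches an end of that gene. Similar length means 0.8 to 1.25 times. Counts of protein-coding genes are read against the share over all such genes, at table starts or outer ends, without a test. The genes, lists and words were chosen with earlier results of these data known. Named are all 10 genes with every region in their windows and, of other lists, the highest 3 accessible and the first 3 closed genes, with some further names chosen after their values were seen. 1 gene first placed in these lists was left out of the counts and is not reported here. Alternatives covered start windows, flanks, score, overlap, outer ends and entries. The code ran under Python 3.11.15 (scipy 1.17.1, numpy 2.4.6, pandas 2.3.3, matplotlib 3.10.9) and was tested on simulated data.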

Additional observations from a re-analysis of the deposited data

How the results depend on the processing

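Of 21 recomputed values, 14 stayed within 1.5 times the value reported and 7 did not. The count of accessible starts, 4 of 10, was also 4 with start windows of 500 bp and 2 kb, with any overlap and with any summit of a region. It was 3 at a score of at least 830, where LIN28A was lost, and 2 at either outer end, where DPPA4 and LIN28B were lost because their starts lie inside the gene (66.7% of all protein-coding genes by that measure). It was also 2 among the 7 genes with a start in the promoter table (71.2% of all protein-coding genes there), which leaves out LIN28A and SALL4. This last setting and the count by any summit were chosen after seeing the data. POU5F1, NANOG, CRIPTO, ZFP42, UTF1 and L1TD1 were closed in each of the start settings recomputed gene by gene, namely the 500 bp and 2 kb windows, the score, the overlap and the outer ends. The 38 regions became 24 with a flank of 20 kb, 73 with 100 kb, 15 above the median fold enrichment and 93 as summit entries, and the 24 distal regions became 14 with a flank of 20 kb, since each setting admits another amount of sequence or entries. The 28 accessible starts among 42 genes of the other coding lists ranged from 27 to 30 over the alternatives. That count is near the share over all protein-coding genes, 71.2% at starts in the table and 66.7% at either outer end. However, it pools unlike lists. The LIN28 and let-7 pathway had 10 of 10 and the SALL family 3 of 3. The primed partners had 6 of 9, the naive state 5 of 10 and NODAL and FGF signalling 4 of 10. No paired analysis was possible because the list holds no value per sample and leaving out single replicates was not possible either.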
